A study of Mus musculus with 36 samples.

Results

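Maturation of female bone marrow was followed in 18 of the 36 RNA-seq libraries of a mouse study, those whose titles carry F as the letter for sex, with 9 libraries from mice of 32 weeks and 9 from mice of 3 weeks. At each age 3 libraries came from Nox4 fl/fl control mice, 3 from conditional knockouts (PrxCre +/ Nox4 fl/fl, called CKO) and 3 from whole-body knockouts (Nox4 0/0, called Nox4-/-). The mice were on a C57BL/6J background. In the CKO, Cre recombinase was driven by the Prrx1 promoter, which is active in limb bud mesenchyme and the skeletal cells derived from it and not in hemopoietic cells. The Nox4-/- mice lacked exons 1 and 2 of Nox4 in every cell. Marrow was spun out of the femurs, and RNA from 2 to 4 mice was pooled for each library, so that n counts pools and not mice. The question was which transcripts of female marrow differed between weaning age and mature adulthood, with genotype as a covariate.

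Marrow is the site of blood formation in the postnatal mouse and holds red cell precursors, granulocytes, B-cell precursors and platelet-forming megakaryocytes in a scaffold of stromal, fat, vessel and bone cells. Around weaning the animal grows fast and its marrow makes red cells and new B cells at a high rate. In the adult, the marrow keeps long-lived plasma cells and mature granulocytes in store, and its stromal cells hold blood stem cells in their niche through factors such as CXCL12 and KIT ligand. Whole marrow was sequenced here, so a lower level of a cell type's genes can mean fewer of those cells or less of the RNA in each of them, and the data cannot tell these apart.

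The 9 libraries of 3 weeks held 32797988 to 46121794 counts and the 9 of 32 weeks 12979112 to 46569282. The shallowest libraries were control and CKO libraries of 32 weeks, while the Nox4-/- libraries had 36663366 to 41714770 counts at 3 weeks and 22970162 to 46569282 at 32 weeks. The labels name no run or preparation date, so age cannot be told apart from a difference in preparation or sequencing between the ages. CKO and Nox4-/- libraries of the same age carried the same sequencer sample numbers, so they cannot all be of a single run. Within each genotype no number occurred at both ages, so the libraries of a genotype could share a run. Genotype therefore cannot be told apart from a difference between runs either. Nox4, the targeted gene, was at the limit of detection: the control libraries held 6 counts at 3 weeks (1 to 3 in each) and 0 at 32 weeks, where 3 counts would be 0.0536 CPM (counts-per-million, here of the library total). CKO libraries held 3 counts and 1 count at the respective ages and Nox4-/- libraries 0 at both, with a limit of 0.0131 CPM over 6 libraries, so Nox4 itself gave no check of the labels. Cyp2s1 set the CKO libraries apart with 209 to 435 counts each, against 1 to 9 in control and 3 to 16 in Nox4-/- libraries. Every female library held 596 to 975 CPM of Xist, and the 4 Y-linked genes Ddx3y, Kdm5d, Eif2s3y and Uty together held at most 1.79 CPM, the highest being 29 and 27 counts in CKO replicates 2 and 1 of 32 weeks.

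Levels below are CPM on library sizes scaled by TMM, a method that equalises the bulk of genes between libraries. Differences are log2 fold changes of 32 against 3 weeks, with their standard error (SE), from edgeR's quasi-likelihood test on the raw counts. A gene is said to have risen or fallen where the p-value, adjusted by the Benjamini-Hochberg method over all 15204 genes tested, was under 0.05. A change is called strong where it was also at least 1 on the log2 scale. Since so many genes passed the test, the shares over all genes given in the next paragraph are the background to every count of list members. A gene was tested where at least 3 libraries reached the level of 10 counts in a library of median depth. A gene that did so at 1 age only could hardly be tested without a difference, so such members are named below, and 216 of all genes tested did so only at 3 weeks and 584 only at 32 weeks.

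Age dominated the transcriptome of female marrow. Of the genes tested, 11595 (76.3%) differed between the ages, 5770 higher (38.0%) and 5825 lower (38.3%) at 32 weeks. Strong changes were fewer and mostly upward, with 1749 strong rises (11.5%) and 492 strong falls (3.24%). The 9 libraries of each age did not overlap for 6180 genes (40.6%), 3234 of them higher (21.3%) and 2946 lower (19.4%) at 32 weeks. Age accounted for 65.1% of the variance of log2 CPM, genotype for 6.01%, their combination for 5.76% and the spread within groups for 23.1%. Nearest to the 32-week side among the young libraries were control replicate 1 and Nox4-/- replicate 1. With scaling by library size only, 60.1% of the called genes were higher at 32 weeks in place of 49.8%, since that scaling moved the median of all genes by 0.12. The largest rise among well-expressed genes (mean log2 CPM of at least 3) without overlap was that of Jchain, followed by Apol11a, Aldh1a2, H2-Q7, Ecm1, Wfdc17, H2-Q9 and C1s1. The largest falls were those of BC100530, Syt14, Stfa1, Plek2, Nrip3, Rag1, Col11a1 and Cpm.

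**Figure D1:**
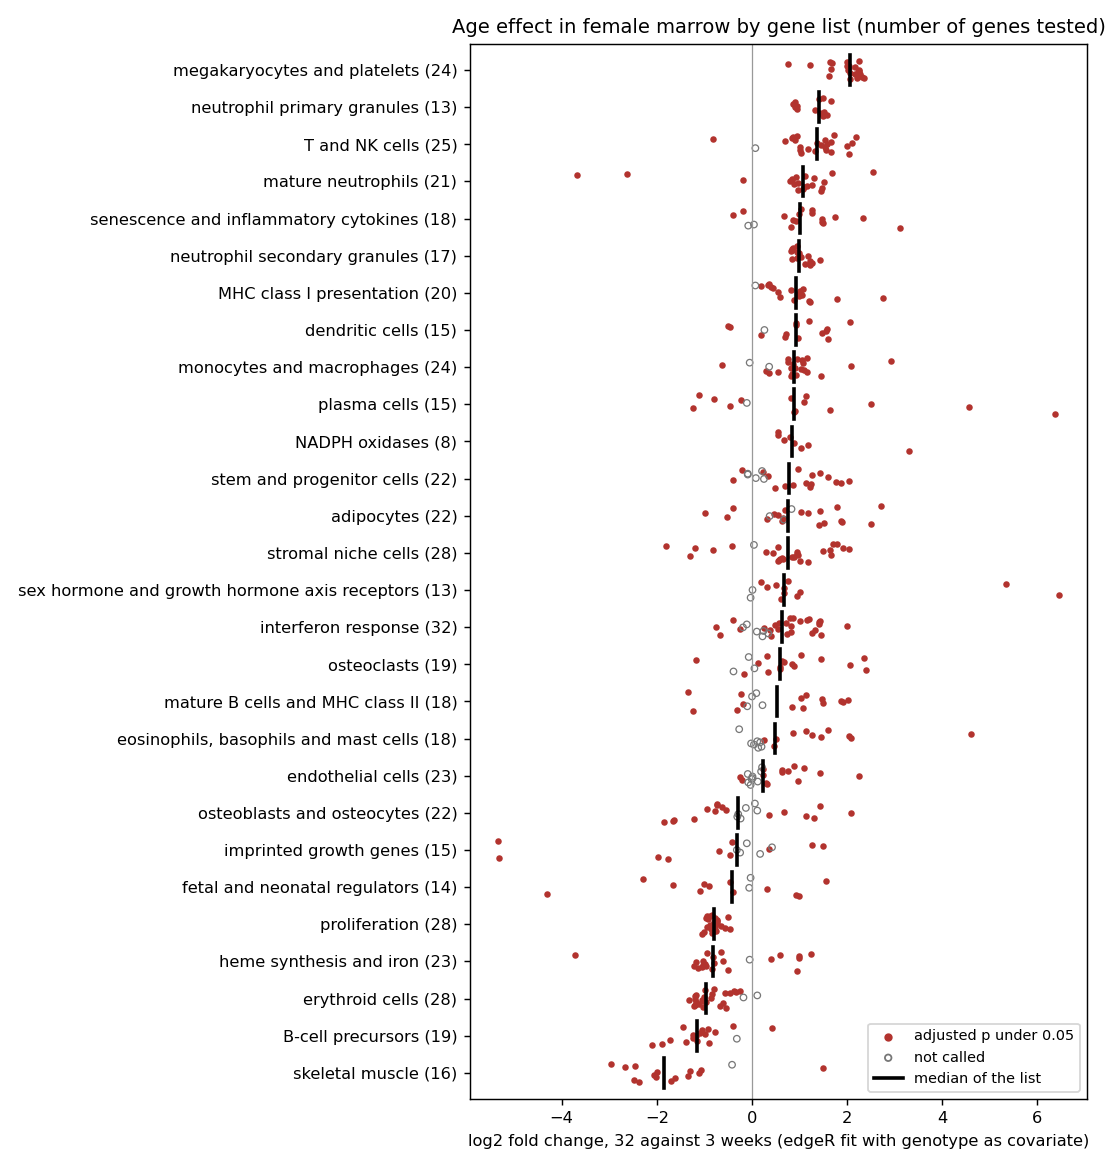
Log2 fold change of 32 against 3 weeks (horizontal axis) for each tested gene of 28 lists, with the number tested in brackets; filled points passed the adjusted p threshold of 0.05 and black bars are list medians. Megakaryocyte genes had the highest median (2.05), and skeletal muscle (-1.85) and B-cell precursor genes (-1.15) the lowest medians, in an order that turned in 2 alternatives.

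The plot by gene list gives an overview of the groups described next. At its upper end stand genes of megakaryocytes, neutrophil granules and T cells, and at its lower end genes of skeletal muscle, B-cell precursors and red cell precursors. The median of all tested genes was -0.01, and no list median changed sign in any alternative processing, but some moved by more than 1.5 times. With limma on the deposited values, where 1 is added before the logarithm and low genes change less, the median was 0.51 for stem and progenitor cells, 0.33 for osteoclasts, 0.39 for adipocytes, 0.63 for senescence and inflammatory cytokines, -0.20 for fetal regulators and -0.83 for skeletal muscle, the last then above B-cell precursors (-1.14). With library size only it was -0.21 for imprinted genes, -0.19 for osteoblasts and 0.33 for endothelial cells, and removal of length and GC trends gave 0.04 for the last.

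Genes of the early steps of B-cell development were lower in the adult, and several genes of plasma cells were higher. Of 19 genes of B-cell precursors, 17 fell (89.5%, against 38.3% of all genes), 12 of them strongly, 14 without overlap between the ages, and 1 rose, with a list median of -1.15. Rag1, on chromosome 2 from 101638252 to 101649532 (coordinates here are of GRCm38.p6, the RefSeq release of mm10), encodes the enzyme that with its partner RAG2 cuts immunoglobulin genes for rearrangement. Its level was 161 to 239 CPM (median 205) in the 9 libraries of 3 weeks and 27.3 to 62.2 CPM (median 46.6) in those of 32 weeks. All 9 adult libraries were thus far below the lowest young library, a log2 fold change of -2.10 (SE 0.129, adjusted p = 1.26e-11). Rag2, next to Rag1 on the same chromosome from 101624712 to 101632528, fell from a median of 19.3 to 5.33 CPM (log2 fold change -1.89, SE 0.12). Vpreb3, which assists the assembly of the receptor in precursor B cells, lay at 63.5 to 98.0 CPM (median 77.6) at 3 weeks and at 14.9 to 30.0 CPM (median 25.1) at 32 weeks. Its groups did not overlap either, and it fell by 1.72 on the log2 scale (SE 0.116).

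Several further members of this list moved the same way, among them a chain of the B-cell receptor and factors of B-cell identity. Cd79a, a signalling chain of the receptor, fell by 0.98 on the log2 scale, and the lineage factors Pax5 and Ebf1 and the interleukin 7 receptor Il7r fell by 1.22, 1.18 and 1.25. Dntt, which adds bases at the joints of rearranged genes, varied more between libraries, at 24.7 to 85.8 CPM (median 37.2) at 3 weeks and 15.2 to 29.9 CPM (median 21.5) at 32 weeks. These ranges overlapped, and the log2 fold change was -0.90 (SE 0.196, adjusted p = 0.000317). Erg, a transcription factor that stem cells and vessel cells also express, was the only member that rose (0.43), and Igll1 did not pass the test (-0.32).

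Plasma cells, the antibody-secreting end of the lineage, held the largest rise among the well-expressed genes, that of Jchain. This gene, on chromosome 5 from 88519809 to 88527897, encodes the chain that joins IgA and IgM into polymers. It stood at 3.89 to 9.83 CPM (median 6.82) at 3 weeks and at 453 to 568 CPM (median 518) at 32 weeks, with a log2 fold change of 6.36 (SE 0.16, adjusted p = 1.08e-16). The highest young library lay far below the lowest adult one, and the age effects within control, CKO and Nox4-/- females were 6.28, 6.35 and 6.47. Of 15 plasma cell genes 9 rose (60.0%) and 5 fell (33.3%), the latter near the 38.3% of all genes, and Tnfrsf17 reached the filter level only in the adult. Among those that rose were Tnfrsf17, the survival receptor BCMA (4.57), Derl3, a factor of protein disposal in the secretory pathway (2.51), and Prdm1, the regulator of plasma cell identity (1.64). Irf4, which plasma cells share with activated and precursor B cells, fell from a median of 96.4 to 42.5 CPM (log2 fold change -1.25, SE 0.105), and Pou2af1, a B-cell coactivator, fell by 1.12.

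The list of mature B cells and MHC class II had 18 genes tested, of which 9 rose (50.0%, against 38.0% of all genes), 8 strongly, 5 fell (27.8%, against 38.3%) and 4 did not pass the test. With library size only 2 fell, and with length and GC trends removed 3. Each of the strong rises except that of Cr2, a complement receptor of mature B cells, was of the MHC class II pathway, which dendritic cells and macrophages use as well. H2-Aa, on chromosome 17 from 34282744 to 34287823, encodes the alpha chain of the class II molecule I-A. It lay at 42.2 to 95.8 CPM (median 59.9) at 3 weeks and at 177 to 287 CPM (median 245) at 32 weeks, without overlap (log2 fold change 1.91, SE 0.12, adjusted p = 1.71e-11). H2-Eb1 and H2-Ab1, the beta chains of I-E and I-A, rose by 2.01 and 1.86, the invariant chain Cd74 by 1.49 and Ciita, the master regulator of the pathway, by 1.14. Ms4a1, which encodes CD20, fell from 79.8 to 136 CPM (median 114) to 28.1 to 58.7 CPM (median 47.7), and Tnfrsf13c, the receptor for the B-cell survival factor BAFF, fell by 1.34 on the log2 scale.

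The promoters of H2-Aa and H2-Eb1 are shown because both genes are among the strong rises of this list. Capitals mark CTGATTGG, the letters of the Y box of class II promoters, in the 250 bases before the annotated start (RefSeq, GRCm38.p6). The H2-Aa window is chr17:34287824-34288073 on the minus strand and the H2-Eb1 window chr17:34305617-34305866 on the plus strand, both printed 5′ to 3′ along the gene.
H2-Aa: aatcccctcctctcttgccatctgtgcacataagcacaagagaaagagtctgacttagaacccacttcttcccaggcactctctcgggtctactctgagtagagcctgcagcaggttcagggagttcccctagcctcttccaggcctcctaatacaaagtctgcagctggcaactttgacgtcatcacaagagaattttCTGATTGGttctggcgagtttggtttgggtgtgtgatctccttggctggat
H2-Eb1: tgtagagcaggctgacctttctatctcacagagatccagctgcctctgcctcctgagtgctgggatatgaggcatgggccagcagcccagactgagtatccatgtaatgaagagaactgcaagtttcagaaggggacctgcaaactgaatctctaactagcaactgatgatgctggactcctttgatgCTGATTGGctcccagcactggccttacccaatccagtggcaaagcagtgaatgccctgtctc
The match began 51 bases before the start of H2-Aa and 62 bases before that of H2-Eb1. Of the 18 genes in the list 13 had a promoter in the RefSeq table, with 16 windows, and 3 of these windows (18.8%) held the letters on either strand, those of H2-Aa, H2-Eb1 and Fcer2a. Over all 32851 windows the share was 3.83%. The reverse complement of CTGATTGG contains CCAAT, so that the match is also a match to that shorter motif. The genes and motifs shown were chosen after their values were seen, and a match describes letters only.

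T and NK cell genes were low at both ages and higher in the adult. Of 25 tested, 23 rose, 18 strongly, and 17 without overlap, with a median of 1.36. Cd3e, a signalling chain of the T-cell receptor, lay at 0.735 to 2.66 CPM (median 1.25) at 3 weeks and at 4.69 to 6.60 CPM (median 5.57) at 32 weeks, a log2 fold change of 2.04 (SE 0.172). Ccl5, a chemokine of memory T and NK cells, rose by 2.19 and Bcl11b, a T-cell transcription factor, by 2.11. Gzma, a granule protease of killer cells, was the single member that fell (-0.83), from 2.68 to 7.82 CPM at 3 weeks to 2.21 to 3.38 CPM at 32 weeks, with overlap. The list median was 1.69 in CKO and 1.11 in control females, a difference that was not tested.

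Most erythroid genes were lower in the adult. Of 28 erythroid genes 26 fell, 13 strongly (8 with library size only) and 21 without overlap, and none rose, with a median of -0.97. Tfrc, the transferrin receptor by which precursors take up iron, fell from 1410 to 2610 CPM (median 1890) to 768 to 952 CPM (median 853). The log2 fold change was -1.22 (SE 0.0967, adjusted p = 4.72e-10), and the adult libraries were also the more uniform. Rhag, a membrane protein of the Rh complex, fell by 1.32 and Klf1, the erythroid transcription factor, by 1.04. The globin genes changed less, at -0.57 for Hbb-bt and -0.47 for Hbb-bs, and -0.34 and -0.26 for Hba-a1 and Hba-a2. Each of these pairs is nearly identical in sequence, so that their reads may be divided uncertainly between them.

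Of 23 genes of heme synthesis and iron handling, 16 fell (69.6%, against 38.3% of all genes) and 6 rose (median -0.83). Those that fell were mostly steps of heme synthesis: Cpox fell by 1.23, Uros by 1.05 and Fech, which inserts the iron, by 0.98. Slc25a37, the carrier that brings iron into mitochondria, fell from a median of 2530 to 1090 CPM. Those that rose were Hmox1, which degrades heme (1.24), Trf (0.99), the iron exporter Slc40a1 (0.98), Alas1 (0.94), Hfe (0.59) and Ftl1 (0.39), genes that macrophages or other cells also use. Erfe, on chromosome 1 from 91366305 to 91374217, encodes erythroferrone, the hormone by which red cell precursors lower hepcidin. It lay at 2.10 to 52.0 CPM (median 28.4) at 3 weeks and at 1.13 to 3.47 CPM (median 1.64) at 32 weeks. Its young libraries were spread over more than an order of magnitude, and the lowest of them fell inside the adult range, yet the log2 fold change of -3.72 (SE 0.492, adjusted p = 8.22e-07) passed the test.

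All 28 proliferation genes fell, and all 28 did so without overlap, against 38.3% and 19.4% of all genes. The changes were of like size, from -0.47 (Aurkb) to -1.06 (Mki67), with a median of -0.81, and only 2 were strong. Mki67, which encodes the Ki-67 antigen of dividing cells, lay at 3130 to 5220 CPM (median 4450) at 3 weeks and at 1960 to 2280 CPM (median 2070) at 32 weeks. Ccnb1, the cyclin of mitotic entry, fell by 1.02, Rrm2, which makes DNA precursors, by 0.97, and Top2a, which untangles DNA, by 0.85. The summed level of the list ran from 12100 to 17700 CPM in the young and from 8090 to 8800 CPM in the adult libraries.

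The promoter of Cdk1, the kinase that drives mitosis and a member that fell by 0.76, is shown for the motifs that cell cycle promoters are known for. Capitals mark CCAAT on either strand (as ATTGG on the strand printed) and TTTGAA, the cell cycle homology region. The window is chr10:69352913-69353162 on the minus strand, printed 5′ to 3′ along the gene.
Cdk1: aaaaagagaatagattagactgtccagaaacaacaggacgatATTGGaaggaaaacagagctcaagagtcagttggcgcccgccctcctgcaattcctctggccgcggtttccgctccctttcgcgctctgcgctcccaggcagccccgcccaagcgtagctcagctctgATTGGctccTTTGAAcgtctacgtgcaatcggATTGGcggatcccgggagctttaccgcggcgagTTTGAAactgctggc
TTTGAA began 15 and 71 bases before the start, and CCAAT matches stood 48, 80 and 208 bases before it. RefSeq held windows for 23 of the 28 genes, 24 windows in all, and 20 of them (83.3%) held CCAAT against 33.8% of all windows. TTTGAA was found in 8 of the 24 (33.3%) against 16% of all windows.

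Megakaryocyte and platelet genes rose throughout. All 24 did so without overlap, 23 of them strongly, against a background of 38.0% for a rise and 11.5% for a strong rise, and the median was 2.05. Itga2b, on chromosome 11 from 102453297 to 102469883, encodes the alpha chain of the fibrinogen receptor. It lay at 89.8 to 124 CPM (median 98.2) at 3 weeks and at 408 to 606 CPM (median 497) at 32 weeks, a log2 fold change of 2.27 (SE 0.089, adjusted p = 2.17e-14). Gp1ba and Gp1bb, subunits of the receptor for von Willebrand factor, rose by 2.36 and 2.32, and Vwf itself by 2.24. Pf4, a chemokine stored in platelet granules, rose by 2.06. Fli1, a transcription factor that many blood and vessel cells share, was the least changed member (0.75).

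Gp5, a platelet glycoprotein that sits in a complex with the products of Gp1ba and Gp1bb, rose by 2.2, and its promoter is shown with capitals at TTATC, the reverse complement of GATAA, the core that GATA factors bind. The window is chr16:30310782-30311031 on the minus strand, printed 5′ to 3′ along the gene.
Gp5: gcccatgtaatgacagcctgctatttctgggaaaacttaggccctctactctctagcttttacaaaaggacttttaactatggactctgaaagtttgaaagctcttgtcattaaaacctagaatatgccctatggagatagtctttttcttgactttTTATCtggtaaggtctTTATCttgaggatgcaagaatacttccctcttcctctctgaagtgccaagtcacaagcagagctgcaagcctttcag
The matches stood 77 and 93 bases before the start. Of the 18 members with a window, 8 (44.4%) held GATAA on either strand, against 22.6% of all windows.

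Most granulocyte genes were higher in the adult. All 13 genes of primary granules rose without overlap (median 1.40), as did all 17 of secondary granules, 15 without overlap (median 0.98). Elane, the elastase of primary granules, rose from 141 to 214 CPM (median 171) to 375 to 761 CPM (median 512), a log2 fold change of 1.58 (SE 0.108, adjusted p = 5.61e-11). Mpo, the myeloperoxidase of the same granules, rose by 1.49, and Ltf (lactoferrin) and Camp (cathelicidin) of secondary granules by 1.22 and 1.11. Of 21 genes of mature neutrophils 18 rose and 3 fell (median 1.07). S100a8, a calcium-binding alarmin, rose by 1.09, Cxcr2, the receptor for release into blood, by 1.07 and the protease inhibitor Slpi by 1.68. The medians of these lists were 1.70, 1.16 and 1.31 in Nox4-/- females, 1.03, 0.99 and 0.97 in CKO and 1.26, 0.81 and 0.77 in control females, differences that were not tested, and the highest adult sum of each list was that of Nox4-/- replicate 3.

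Those that fell were Cxcr4 (-0.18), Stfa3 (-2.62) and Stfa2 (-3.67), the latter both stefins, which inhibit cysteine proteases. Stfa2 lay at 6.09 to 42.3 CPM (median 13.4) at 3 weeks and at 0.29 to 1.89 CPM (median 0.884) at 32 weeks. Stfa1 fell by 3.20 and BC100530, of the same cluster, by 4.57 on the log2 scale, the latter from a median of 53.2 to 1.57 CPM. These genes are nearly identical copies, so their values are uncertain one by one, and their falls were smaller in Nox4-/- females (-2.01, -2.19 and -3.23 for Stfa2, Stfa1 and BC100530) than in controls (-4.68, -3.66 and -5.37), a difference between genotypes that did not pass the test.

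Among the rarer myeloid cells, 11 of 18 genes of eosinophils, basophils and mast cells rose (61.1%, against 38.0% of all genes) and none fell. The share called, also 61.1%, was below the 76.3% of all genes. The 7 strong rises were of genes of basophils and mast cells. Fcer1a, the IgE-binding chain of the high-affinity receptor, lay at 0.248 to 0.629 CPM (median 0.465) at 3 weeks and at 7.78 to 15.6 CPM (median 10.3) at 32 weeks, a log2 fold change of 4.61 (SE 0.154, adjusted p = 3.39e-15). The basophil proteases Mcpt8 and Prss34 rose by 2.07 and 2.03. The eosinophil peroxidase gene Epx overlapped between the ages, with 193 to 420 CPM at 3 weeks and 273 to 599 CPM at 32 weeks (log2 fold change 0.47, SE 0.128, adjusted p = 0.00251), and the granule protein gene Prg2 did not pass the test (0.13).

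Of 24 genes of monocytes and macrophages 21 rose and 1 fell (median 0.89). Trem2, a lipid-sensing receptor of macrophages and osteoclast precursors, rose from 1.17 to 2.30 CPM (median 1.32) to 8.81 to 13.3 CPM (median 11.4), a log2 fold change of 2.92 (SE 0.113). Cd5l, a secreted protein of tissue macrophages, rose by 2.07, Ly6c2 of classical monocytes by 1.44 and C1qa, of complement, by 1.10. Timd4, a receptor for dying cells, fell by 0.64 with overlapping libraries. Of 15 dendritic cell genes 12 rose, among them Siglech of plasmacytoid cells (1.59) and Clec9a of cross-presenting cells (1.56), while Ccr7, the receptor for homing to lymph nodes, fell by 0.51.

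Genes of antigen presentation by MHC class I rose almost throughout, with 19 of 20 higher, 18 without overlap, and none lower (median 0.93). H2-K1, a classical class I chain, rose from 247 to 404 CPM (median 281) to 656 to 759 CPM (median 722), and B2m, its light chain, by 1.06 on the log2 scale. H2-Q7 had the largest log2 fold change (2.75, SE 0.165), but it shares most of its sequence with H2-Q6 and H2-Q9 and its value is uncertain for that reason. Interferon response genes moved unevenly: 22 of 32 rose and 4 fell (median 0.64). Ifi44 rose by 2.00 and Iigp1, a GTPase against vacuolar pathogens, by 1.42, whereas Isg15 fell by 0.68 and Rsad2 by 0.76.

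Of 22 genes of stem and progenitor cells, 15 rose and 2 fell, with 9 strong rises (median 0.79). Slamf1, the CD150 antigen of long-term stem cells that megakaryocytes also carry, lay at 7.56 to 11.5 CPM (median 9.36) at 3 weeks and at 30.0 to 49.8 CPM (median 33.9) at 32 weeks (log2 fold change 1.88, SE 0.0876). Ly6a, which encodes Sca-1 and is also expressed by vessel and stromal cells, rose by 2.04, Meis1, a stem cell transcription factor, by 1.76 and Kit, the receptor for stem cell factor, by 0.49. Mllt3, a factor of stem cell maintenance, fell by 0.41. Gata2 and Flt3 in this list are also in the basophil and dendritic cell lists.

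**Figure D2:**
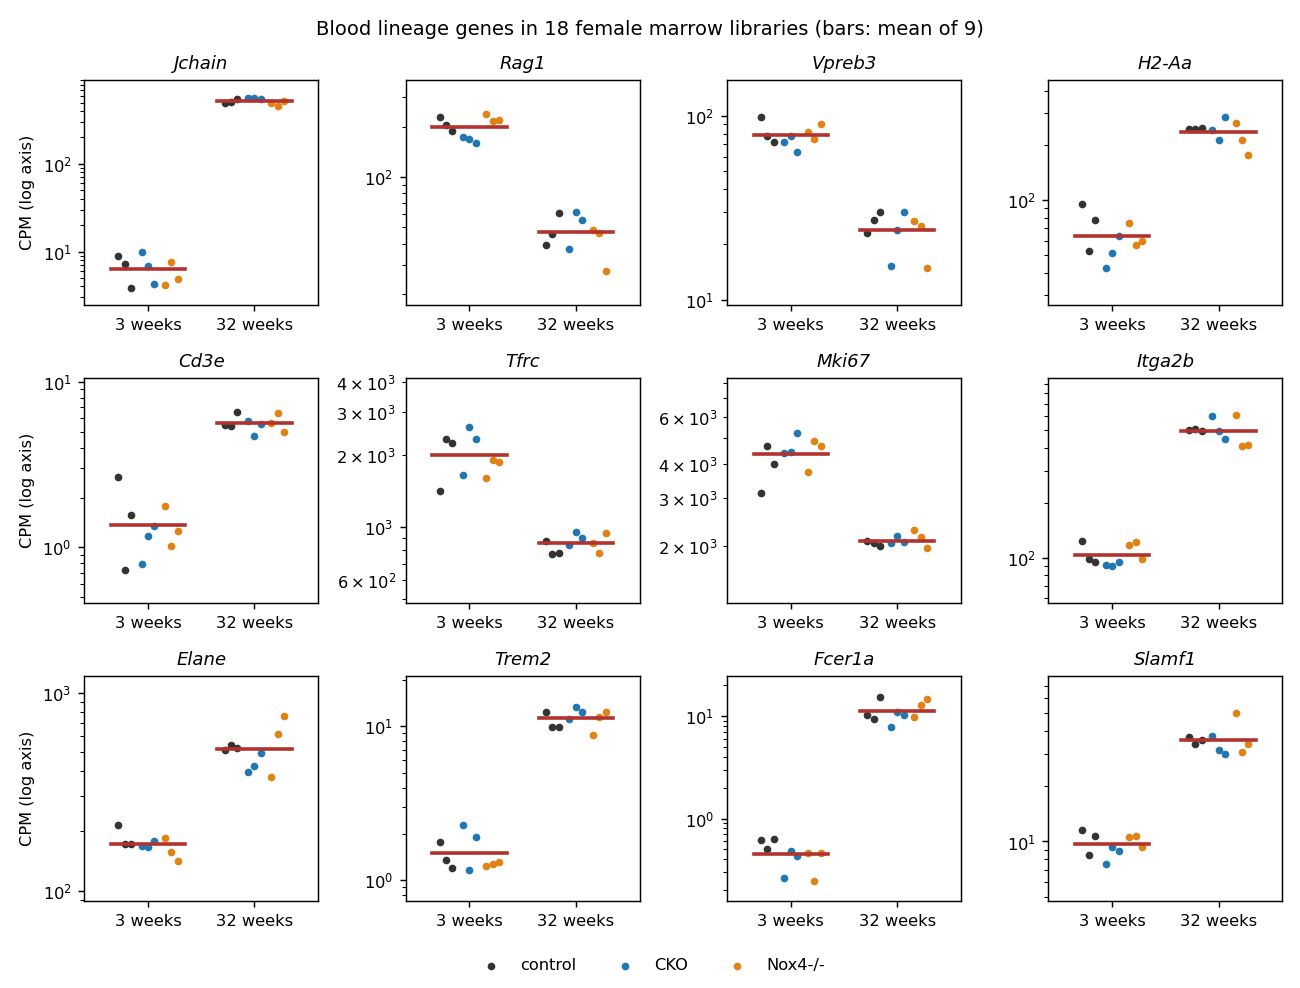
CPM (log axis) of 12 blood lineage genes in the 18 female libraries by age, each point 1 library coloured by genotype and each bar the mean of 9 libraries. The 9 libraries of each age do not overlap for any of the 12; Rag1, Vpreb3, Tfrc and Mki67 are lower at 32 weeks and the other 8 are higher.

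The genes in the plot of blood lineages do not overlap between the ages. Their separation within each genotype follows from that and is no separate result. Whatever the genotype, the adult points of a gene lie on the same side of the young ones, and the distance between the ages is greatest for Jchain and Fcer1a.

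Some of the sharpest falls were those of fetal and neonatal growth regulators. Igf2bp3, on chromosome 6 from 49085218 to 49215469, encodes an RNA-binding protein of fetal blood stem cells and other fetal tissues. It lay at 12.2 to 19.2 CPM (median 14.1) at 3 weeks and at 0.473 to 1.11 CPM (median 0.712) at 32 weeks, a log2 fold change of -4.31 (SE 0.128, adjusted p = 9.7e-16). Plag1, a growth-promoting transcription factor, fell by 2.29 and Hmga2, a chromatin protein of young stem cells, by 1.10. Lin28b, an RNA-binding protein that keeps the fetal blood program, was too low for the test, with 0.0899 to 0.213 CPM at 3 weeks and 0 to 0.0423 CPM at 32 weeks, groups that did not overlap. Of the 14 genes of the list that were tested, 8 fell (57.1%) and 4 rose (28.6%), with a median of -0.43, and Hba-x reached the filter level only at 3 weeks. Only 9 had at least 10 counts in every library, and of these 4 fell and 4 rose (median -0.02), so the surplus of falls lay in the low genes of the list. The largest rise was that of Mycn (1.56), a growth regulator whose level went from a median of 1.07 to 2.90 CPM, and Lin28a, the relative of Lin28b, also rose (0.98).

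Among 15 imprinted growth genes, which are expressed from the copy of a single parent, 7 fell (46.7%, against 38.3% of all genes) and 3 rose. The share called was 10 of 15 (66.7%), below the 76.3% of all genes. H19, Peg3 and Slc38a4 reached the filter level only at 3 weeks, and of the other 12 genes 4 fell and 3 rose (median -0.18). H19 and Igf2 are neighbours on chromosome 7 (142575530 to 142578146 and 142650768 to 142666816) and share enhancers. H19, a noncoding RNA, went from 3.76 to 13.6 CPM (median 6.38) to 0.0595 to 0.295 CPM (median 0.139). Its log2 fold change was -5.31 (SE 0.232), given without a p-value since H19 reached the filter level only at 3 weeks. Igf2, a fetal growth factor, fell from 3.68 to 7.01 CPM (median 4.59) to 0.762 to 1.82 CPM (median 1.59), a log2 fold change of -1.76 (SE 0.15). Neither gene overlapped between the ages. Grb10, an inhibitor of insulin signalling, fell by 0.70, and Peg3 by 1.97, whereas Peg10 and Sgce, neighbours in another imprinted region, rose by 1.5 and 1.27.

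Genes of osteoblasts and osteocytes moved in both directions. Of 22 tested, 10 fell (45.5%, against 38.3% of all genes), 6 rose and 6 did not pass the test (median -0.30), so that the share called (72.7%) was near that of all genes (76.3%). Col1a1, the main collagen of bone, lay at 232 to 471 CPM (median 352) at 3 weeks and at 86.9 to 172 CPM (median 99.7) at 32 weeks, a log2 fold change of -1.63 (SE 0.146, adjusted p = 2.74e-09). Bglap and Bglap2, the nearly identical osteocalcin genes, fell by 1.85 and 1.66. Phex, a peptidase of osteoblasts and osteocytes that acts in phosphate balance, rose from 1.55 to 5.48 CPM (median 2.46) to 9.82 to 16.8 CPM (median 11.7), and Runx2, the osteoblast transcription factor, and Ibsp, bone sialoprotein, rose by 1.31 and 1.13. The defining osteoblast factor Sp7 (-0.24) and alkaline phosphatase, Alpl (-0.31), did not pass the test.

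Of 19 osteoclast genes 14 rose and 2 fell (median 0.59). The summed level of the list went the other way, from 3980 to 6950 CPM (median 5640) at 3 weeks to 4230 to 4490 CPM (median 4430) at 32 weeks. Car2, whose mean went from 4561 to 1995 CPM, held most of the young sum. Those that rose most, Atp6v0d2 (2.40), Src (2.36) and Itgb3 (2.05), encode a proton pump subunit, a kinase of the ruffled border and an integrin chain, and Src and Itgb3 are also genes of megakaryocytes. Atp6v0d2 lay at 2.66 to 6.20 CPM (median 5.02) at 3 weeks and at 19.1 to 37.7 CPM (median 23.8) at 32 weeks. The defining enzymes of bone resorption changed little and overlapped between the ages, with -0.16 for Acp5 (adjusted p = 0.0146) and 0.34 for Ctsk (adjusted p = 0.0468). Both calls depended on the processing: Ctsk was lost in some fits without a single library, among them that without Nox4-/- replicate 3 of 32 weeks, and Acp5 with scaling by library size only. Car2 fell by 1.18, and it is also a carbonic anhydrase of red cell precursors.

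Of 15 chondrocyte genes only 4 were expressed enough to be tested, and the defining factors Acan and Sox9 were not among them. Comp (3.53) and Col2a1 (2.24) rose, Col2a1 from 0.921 to 4.76 CPM to 5.94 to 13.9 CPM, and Col11a1 (-1.95) and Col10a1 (-3.84), the collagen of hypertrophic growth plate cartilage, which reached the filter level only at 3 weeks, fell.

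Stromal niche genes mostly rose, with 22 of 28 higher and 5 lower (median 0.75). Cxcl12, the chemokine that retains stem cells and B-cell precursors in the marrow, lay at 433 to 936 CPM (median 629) at 3 weeks and at 1100 to 1570 CPM (median 1440) at 32 weeks, a log2 fold change of 1.17 (SE 0.128, adjusted p = 5.42e-08). Lepr, the leptin receptor that marks the same reticular cells, rose by 1.00 from a median of 51.1 to 100 CPM, and Kitl, the ligand of KIT, by 0.55. Thy1 rose by 1.91 and Timp3, an inhibitor of matrix proteases, by 1.78. Those that fell were matrix genes of fibroblasts, Lum (-1.80), Col3a1 (-1.19) and Dcn (-0.42), with the Wnt inhibitor Wif1 (-1.30) and Nes (-0.82). For Cxcl12 the age effect was 1.71 in CKO, 1.03 in control and 0.78 in Nox4-/- females, without a difference that passed the test.

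Adipocyte genes rose in 16 of 22 cases and fell in 3 (median 0.76), but only 3 of the rises were without overlap. Retn, Acvr1c, Adig and Lgals12 reached the filter level only in the adult, and of the other 18 genes 13 rose and 3 fell (median 0.67). Adipoq, which encodes adiponectin and is also made by the reticular cells above, lay at 15.4 to 59.0 CPM (median 24.4) at 3 weeks and at 46.5 to 92.2 CPM (median 71.0) at 32 weeks, a log2 fold change of 1.40 (SE 0.19). Plin1, on chromosome 7 from 79721164 to 79732904, encodes perilipin of the fat droplet and varied far more. Its range was 0.0828 to 1.46 CPM (median 0.905) at 3 weeks and 1.23 to 9.61 CPM (median 2.19) at 32 weeks, so that the ages overlapped (log2 fold change 2.49, SE 0.439, adjusted p = 3.24e-05). The highest adult levels were those of control replicate 1 (9.61) and Nox4-/- replicate 1 (8.61). Cidec, another droplet protein, rose by 1.89 and the adipsin gene Cfd by 1.87, and Slc2a4, the insulin-responsive glucose carrier, fell by 0.99.

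Endothelial genes changed little by their median (0.22), with 12 of 23 higher (52.2%, against 38.0% of all genes), 2 lower and 9 that did not pass the test. Their summed level was 540 to 695 CPM (median 575) at 3 weeks and 844 to 1170 CPM (median 1000) at 32 weeks. The share called, 60.9%, was below the 76.3% of all genes. Vwf (2.24) and Esam (1.42), the largest rises, are also expressed in megakaryocytes and stem cells. Cdh5, the cadherin that defines the endothelium, was at 29.9 to 45.9 CPM at 3 weeks and 30.2 to 38.5 CPM at 32 weeks (-0.03, adjusted p = 0.732), and Emcn, a sialomucin of marrow sinusoids, fell by 0.26, a call lost with library size only (-0.14, adjusted p = 0.0639) and with length and GC trends removed (-0.07, adjusted p = 0.282).

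Skeletal muscle genes, a sign of tissue from outside the marrow, moved with age as well. Of 16 tested, 14 fell, each strongly, and 1 rose, but only 3 fell without overlap, and with limma on the deposited values 7 of the falls were strong. Myh1, Myh2, Mb and Casq1 reached the filter level only at 3 weeks, and of the other 12 genes 10 fell and 1 rose (median -1.80). Only 5 had at least 10 counts in every library, and of these 3 fell and 1 rose (median -1.06). Their summed level was 25.1 to 111 CPM (median 73.9) at 3 weeks and 19.1 to 29.7 CPM (median 24.4) at 32 weeks, the highest in CKO replicate 3 of 3 weeks. Every muscle gene of the list had counts in all young libraries, and in the adult Myh2 was at 0 in 5 of 9 libraries, Myh1 and Mb in 2 each and Tnnt3 and Casq1 in 1 each. Acta1, the actin of muscle fibres, lay at 1.83 to 20.7 CPM at 3 weeks and 0.119 to 2.67 CPM at 32 weeks. The part of such tissue in the falls of collagens and other matrix genes was not tested. The list median was -2.54 in control, -2.46 in CKO and -0.80 in Nox4-/- females.

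**Figure D3:**
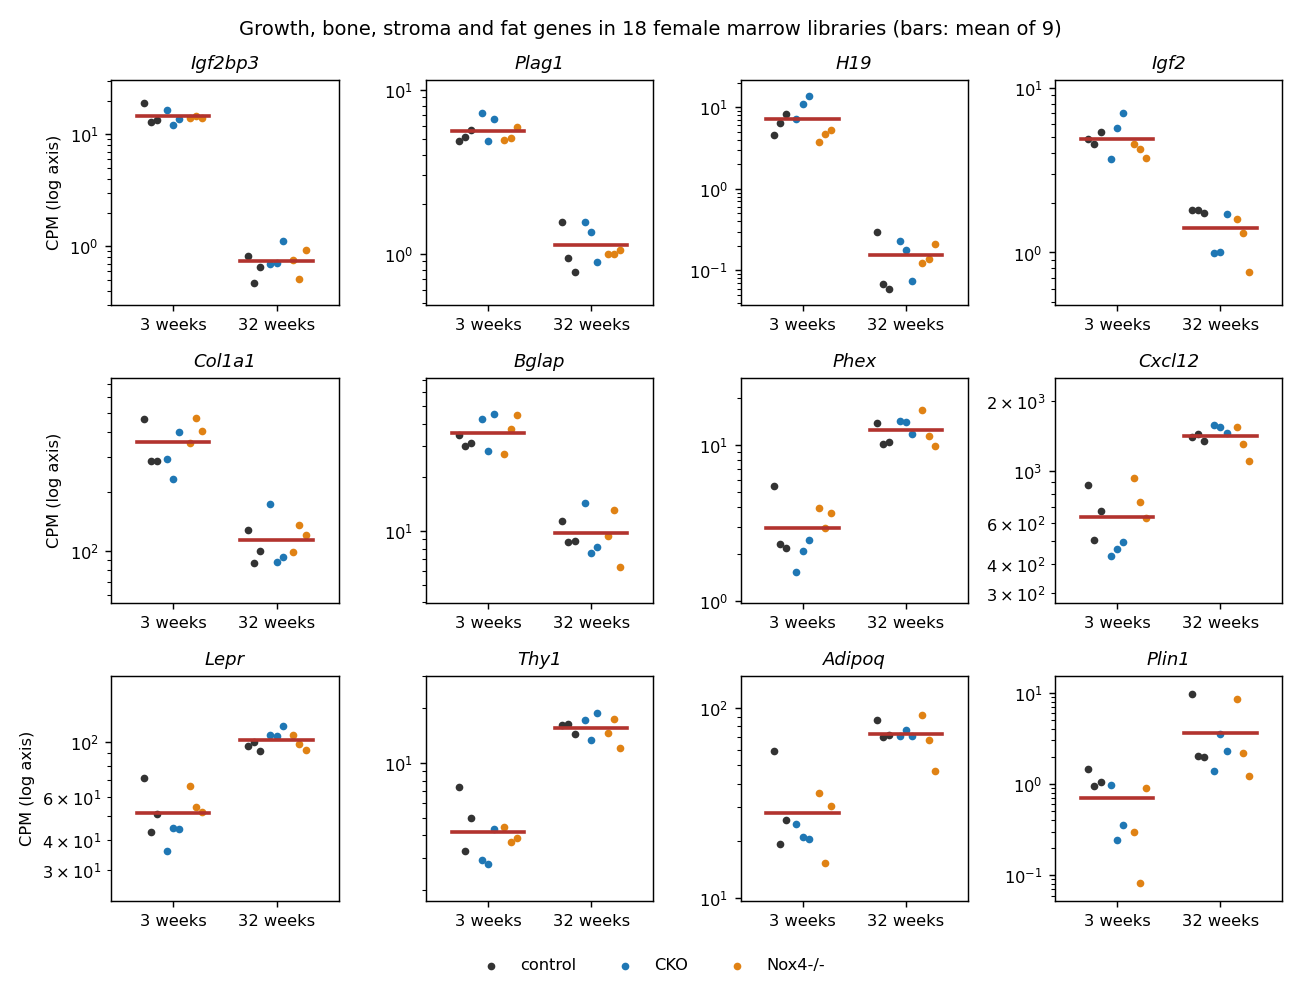
CPM (log axis) of 12 growth, bone, stroma and fat genes in the 18 female libraries by age, each point 1 library coloured by genotype and each bar the mean of 9 libraries. Igf2bp3, Plag1, H19, Igf2, Col1a1 and Bglap are lower at 32 weeks without overlap, Phex, Cxcl12, Lepr and Thy1 higher without overlap, and Adipoq and Plin1 overlap.

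The plot of growth and scaffold genes sets the narrow spread of Igf2bp3 and Plag1 in both ages against the wide spread of Plin1, whose young libraries alone differ by more than an order of magnitude.

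Genes linked to senescence and inflammation rose in 14 of 18 cases and fell in 2 (median 1.00). Cdkn2a, Cdkn2b and Il10 reached the filter level only in the adult, and of the other 15 genes 11 rose and 2 fell (median 0.99). Cdkn2a, which encodes the cell cycle inhibitors p16 and p19, was near its limit of detection, with 9 counts in all at 3 weeks and 56 at 32 weeks. Its log2 fold change was 3.10 (SE 0.611) and its libraries overlapped. No p-value is given, since Cdkn2a reached the filter level only in the adult. Il1a rose by 1.5 and Il1b by 1.46, while Il6 (0.04) and Cdkn1a (-0.08) did not pass the test. Lmnb1, a lamin of the nuclear envelope, fell by 0.41.

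Of 13 genes of NADPH oxidases 8 passed the filter on low counts and rose, 7 without overlap (median 0.83). Without Nox1 the median was 0.79, and 6 had at least 10 counts in every library (median 0.84), which sets the family of Nox4 beside its own near-zero level. Cybb, the catalytic subunit of the phagocyte oxidase, rose from 325 to 469 CPM (median 415) to 681 to 1070 CPM (median 786), and its partner Cyba by 1.18 on the log2 scale. Ncf1, a cytosolic subunit, rose by 0.88. These are genes of neutrophils and macrophages, and Cyba and Cybb are also members of the secondary granule list. Nox1 was low and reached the filter level only in the adult, with 2 to 8 counts per genotype at 3 weeks and 25 to 39 at 32 weeks (log2 fold change 3.30), and Nox3 had 0, which allows up to 0.00515 CPM.

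A list of receptors for sex hormones, growth hormone, insulin and thyroid hormone, which also holds the ligand gene Igf1 and the estrogen-induced Greb1, had 13 genes tested, of which 11 rose and none fell (median 0.67). Pgr, Gper1 and Greb1 reached the filter level only in the adult, and 8 of the other 10 genes rose (median 0.64). Ghr, the growth hormone receptor, rose from 5.75 to 9.18 CPM (median 6.58) to 10.8 to 18.8 CPM (median 11.9). Esr1, the estrogen receptor alpha, rose by 0.61 with overlapping libraries. Pgr and Greb1, which estrogen is known to induce in other tissues, were near 0 in young females, at most 0.0533 and 0.132 CPM. In adult females they lay at 0.674 to 1.47 CPM (median 1.06) and 0.694 to 3.30 CPM (median 1.78).

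The age effect was next examined by genotype. Within control females 8901 genes were called (58.5%), within CKO females 10113 (66.5%) and within Nox4-/- females 9074 (59.7%), each from 3 libraries against 3. In all genotypes 6878 genes (45.2%) were called in the same direction, and 2 (0.0132%) were called in opposite directions. Of the 11595 genes called over all females, 11224 (96.8%) had the same sign in each genotype, and so did 2233 of the 2241 strong ones (99.6%). The direct test of a difference in age effect called 0 genes in edgeR for CKO against control, where an unadjusted p under 0.05 was reached by 2195 genes (14.4%). It also called 0 for Nox4-/- against control, where 1038 genes (6.83%) reached it. If no age effect differed, a share near 0.05 of the genes would reach it. The numbers of such genes rested in part on single libraries. For CKO against control the number was 1274 without control replicate 1 of 3 weeks and 3122 without control replicate 3 of 3 weeks. For Nox4-/- against control the number was 2280 without control replicate 1 of 3 weeks, with 22 called. It was 1749 without Nox4-/- replicate 1 of 32 weeks, with 96 called, and 655 without Nox4-/- replicate 2 of 3 weeks. DESeq2 called 46 and 6, and limma on the deposited log2 values 0 and 1. In simulated data with 3 libraries a group, the test recovered 69.0% of genes whose age effect differed by 1 on the log2 scale and 89.4% of those that differed by 2, so smaller differences could go unseen.

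The smallest p-values of the test between CKO and control were those of Naa38 (difference -0.70), P2ry10b (0.76) and Fgfr2 (0.95), each with an adjusted p of 0.248 in edgeR. Between Nox4-/- and control they were those of Tcap (3.48, adjusted p = 0.325), a muscle gene, LOC100038947 (1.14) and Eldr (-0.83). Among the 551 list genes tested, 80 and 50 had an unadjusted p under 0.05 in the respective comparisons, and the median difference was 0.17 and -0.01. Both comparisons share the control libraries.

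**Figure D4:**
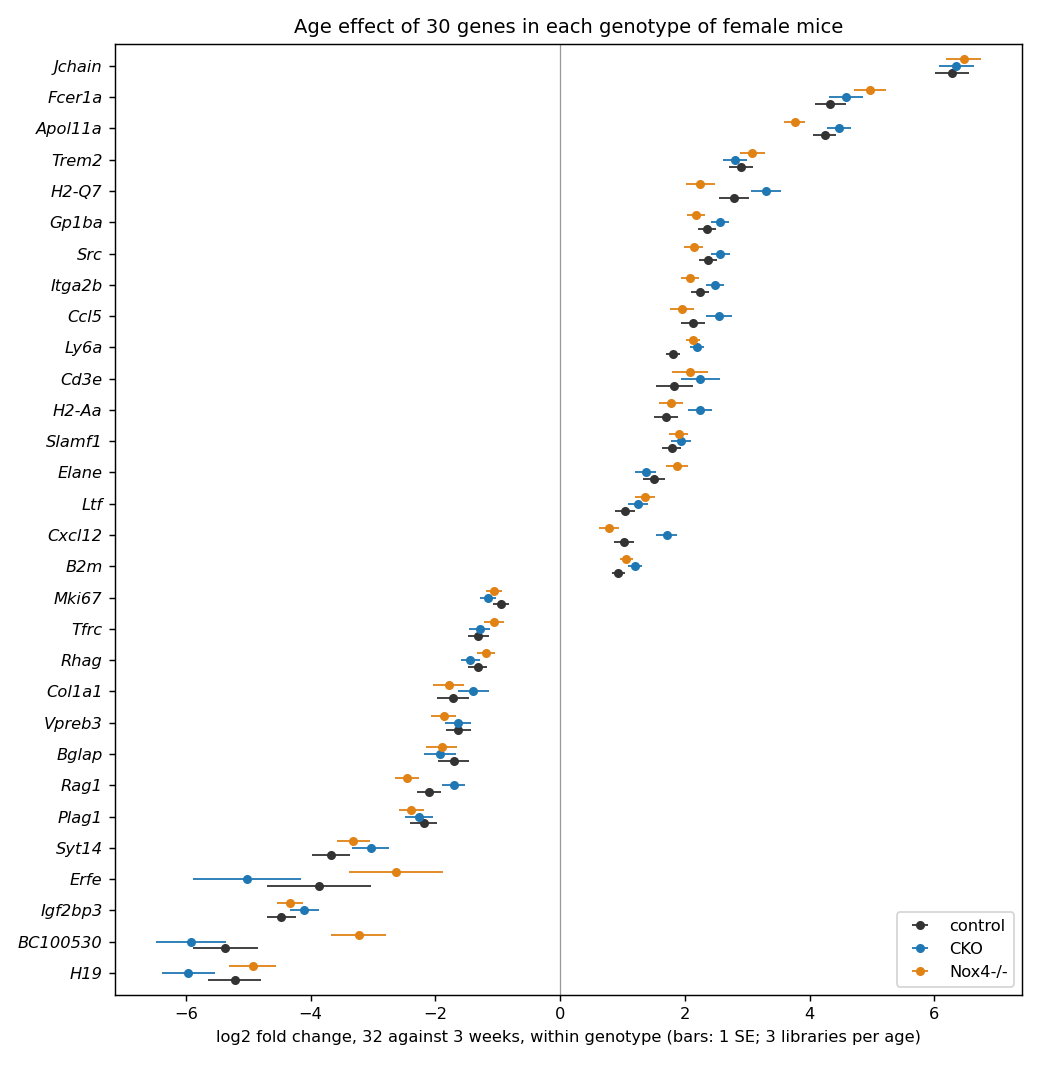
Log2 fold change of 32 against 3 weeks with 1 SE for 30 genes within control, CKO and Nox4-/- females (3 libraries per age each). The estimates of the genotypes lie on the same side of 0 for every gene shown, from H19 (-5.22, -5.96 and -4.93) to Jchain (6.28, 6.35 and 6.47). The genes were picked among strong changes, of which 99.6% had the same sign in each genotype. The shared side thus follows from the choice.

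In the plot by genotype the widest bars and the widest spread between genotypes are those of BC100530 and Erfe. Erfe gave -3.87 in control, -5.02 in CKO and -2.63 in Nox4-/- females, and Itga2b, at 2.24, 2.48 and 2.08, had a narrower spread.

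Whether any of these changes differed from those of males was tested in 1 model of 35 libraries, with 8 male libraries of 3 weeks and 9 of 32 weeks. A further male library was left out because its title and genotype label disagreed, and CPM in this comparison are on library sizes scaled over the 35 libraries. The age effect differed between the sexes for 494 of 15575 genes (3.17%), with 201 higher (1.29%) and 293 lower (1.88%) in females. Control male replicate 3 of 32 weeks held 51.0 CPM of Xist and control male replicate 2 held 6.15, against 0.161 to 0.519 in the other males. Without replicate 3, 387 genes differed, 369 of them among the 494. The differences of the called genes named below, except Greb1 and Lgals12, are also given without it. The number was also sensitive to other single libraries, from 218 to 876. Without the deepest male library, Nox4-/- replicate 3 of 3 weeks, the balance turned, with 123 higher and 95 lower in females, and without CKO female replicate 3 of 3 weeks it was 159 and 150.

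Of 22 adipocyte genes 8 were higher in females (1.29% of all genes were) and none lower, or 7 without Lgals12, which reached the filter level only in adult females, with medians of 0.73 in females and -0.64 in males. Plin1 in males went from 0.149 to 1.79 CPM (median 0.725) to 0 to 0.487 CPM (median 0.132), in the opposite direction to females. The difference in log2 fold change was 5.25 (SE 0.929, adjusted p = 0.00122). Cidec differed by 4.83 and Cfd by 4.30, Cfd from a median of 10.5 to 27.3 CPM in females and from 9.03 to 1.46 CPM in males. The summed level of the list in adults was 610 to 1240 CPM in females and 571 to 731 CPM in males. Adipoq differed by 1.01 (adjusted p = 0.0315), a call that was lost in 6 of 42 alternatives. Without the male library with Xist counts 6 of the 22 genes were higher, Plin1 differed by 5.44, Cidec by 5.01, Cfd by 4.35 and Adipoq by 1.01, and without the deepest male library 7 were higher. No muscle gene passed this test, though the list medians were -1.97 in females and -3.39 in males. The adult sums of the muscle list were 19.1 to 29.7 CPM in females and 14.7 to 32.4 CPM in males. The part of tissue from outside the marrow in the difference of fat genes was not tested.

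Interferon response genes were relatively higher in adult females, with 11 of 32 higher and none lower, 13 without the male library with Xist counts and 10 without the deepest male library. Irf7, a transcription factor of the response, went from a median of 75.7 to 101 CPM in females and from 74.2 to 53.1 CPM in males (difference 0.78, adjusted p = 0.0179, and 0.87 without the library with Xist counts). Of 21 mature neutrophil genes 8 were lower in females (1.88% of all genes were) and none higher. The count was 5 without the library with Xist counts and 0 without the deepest male library, a fit that leaves 1 library of Nox4-/- males of 3 weeks, assumed to vary like the other groups. The median difference of the 8 genes went from -0.50 to -0.45 in that fit, so that the calls were lost with little change in size. S100a8 rose to a median of 5490 CPM in females and 7760 CPM in males, a difference of -0.59 (SE 0.142, adjusted p = 0.0181), or -0.52 without the deepest male library (adjusted p = 0.077). Trem2 rose by 2.92 in females and 4.05 in males (-1.13), and Atp6v0d2 by 2.40 and 3.49 (-1.09). Without the library with Xist counts the differences of S100a8, Trem2 and Atp6v0d2 were -0.58, -1.12 and -1.10.

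Aldh1a2, an enzyme that makes retinoic acid, rose from a median of 4.21 to 27.4 CPM in females and from 1.22 to 1.82 CPM in males, a difference of 2.48 (SE 0.194, adjusted p = 1.72e-09) and of 2.59 without the library with Xist counts. Spon1, a matrix protein, rose by 3.28 in females and 1.81 in males, and A2m, a protease inhibitor, differed by 1.92. Serpina3n, an inhibitor of serine proteases, was at 0.579 to 1.85 CPM in adult females and 12.4 to 22.1 CPM in adult males, with 0.218 to 1.55 and 0.349 to 1.93 CPM in the young. Its difference was -3.41 (SE 0.354), and -3.40 without the library with Xist counts, where Spon1 differed by 1.47 and A2m by 1.91.

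Fmod, a collagen-binding proteoglycan, fell by 3.67 in females, to 0 to 0.289 CPM, and had a log2 fold change of -0.60 in males. Cldn10, a tight junction protein, differed by -1.51. Igf2 had a log2 fold change of -1.80 in females and -0.04 in males, whose adult median was 5.04 CPM against 1.58 CPM in females (difference -1.76, adjusted p = 5.54e-06). H19, its neighbour, fell in both sexes, by 5.38 and 4.55, without a difference that passed the test. Greb1 lay at 0 to 0.325 CPM in adult males, against 0.694 to 3.30 CPM in adult females. It reached the filter level only in adult females, and its log2 difference of 5.23 was 3.77 without the deepest male library. Its place in the plot by sex is therefore not read as a difference. Pgr rose in adults of both sexes, to a median of 1.06 CPM in females and 0.336 CPM in males. Without the library with Xist counts the differences of Fmod, Cldn10 and Igf2 were -3.05, -1.49 and -1.69.

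**Figure D5:**
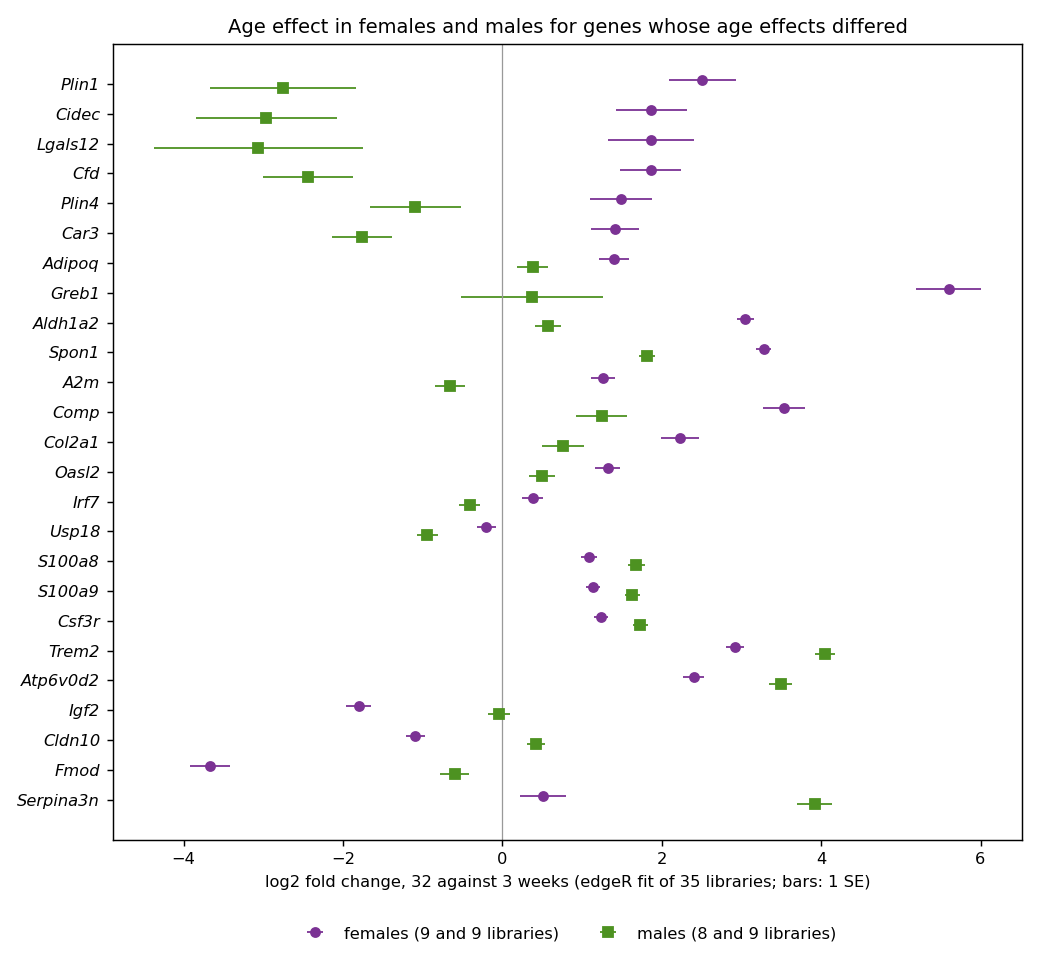
Log2 fold change of 32 against 3 weeks with 1 SE in females (9 and 9 libraries) and males (8 and 9 libraries) for 25 genes called in edgeR's test of the difference between the sexes. Greb1 and Lgals12 reached the filter level only in adult females, so their calls are not read as a difference. Plin1 is at 2.51 in females and -2.75 in males, and Serpina3n at 0.51 and 3.92.

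The plot by sex places fat droplet genes on opposite sides of 0 in females and males, and neutrophil genes on the same side with the males further out. Other genes described above, among them Jchain (6.36 and 5.82) and Rag1 (-2.10 and -2.12), Itga2b (2.26 and 2.08) and Mki67 (-1.06 and -1.16), had no difference between the sexes that passed the test.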

How the data were processed

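Per the labels and the study's methods, the authors prepared stranded poly(A) libraries, sequenced them on a NextSeq 500, removed contaminating reads with Bowtie2 2.2.5, mapped the rest onto mm10 with STAR 2.7.3a and assigned them to RefSeq genes with Partek Flow. Each gene's raw count was deposited, and beside it a TMM-scaled value as log2 of the value plus 1, used here for the limma alternative. Features that had a bare number for a name (26, holding 0.217% of the female counts) were dropped. The raw counts of the 18 female libraries were fitted with edgeR 4.0.16 in R 4.3.3 (TMM, filterByExpr by the 6 groups, age plus genotype, quasi-likelihood test, Benjamini-Hochberg threshold 0.05). Contrasts within and between genotypes used the 6 group means, and females against males the group means of 35 libraries. DESeq2 1.42.0 and limma 3.58.1 were alternatives. In data simulated from these libraries, edgeR recovered 96.0% of 198 genes changed by 1 on the log2 scale (15005 genes tested) for the age effect and 83.8% of 197 genes (15164 tested) for females minus males. Replicates are pools of mice, and the spread between them is what the p-values measure. Limits for a count of 0 use 3 counts and cover counting error only.

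Genes described were the 8 largest rises and falls with mean log2 CPM of at least 3 and no overlap, up to 3 members of each list in the direction of its median and 1 against it, a fixed set, and the genes with the smallest p-values of the other contrasts. The members and all lists were chosen with earlier results of these data known, and further list members named, with Pgr, Greb1, Cfd, Gp5 and Cdk1, were chosen after their values were seen. Some genes that these choices would name are not reported here. Coordinates and promoters came from RefSeq (GRCm38.p6); 23962 of 24597 named features matched by symbol and 540 by synonym. Replicate numbers were not used to pair the libraries of the 2 ages: across the ages of a genotype the 9 pairs with the same number correlated at -0.06 to 0.07 in their deviations from the group means. Over all female groups 7 of 45 such pairs were above 0.1, among them all 3 of Nox4-/- and control females of 3 weeks, against 4 of 90 pairs with other numbers.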

Additional observations from a re-analysis of the deposited data

Results flagged for a closer look

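In groups of 9 libraries, 13 of 312 tested groups of the named genes held a library that stood apart by Dixon's criterion, where chance gives about 1 in 20. Nox4-/- replicate 3 of 32 weeks was that library for 6 genes, with 42.6 CPM of Wfdc17 (median of the 9 adult libraries 25.1) as the highest and 6.90 CPM of Tnfrsf13c (median 14.6), 262 CPM of Hmox1 (409), 4.27 CPM of Ccr7 (7.85), 28.1 CPM of Ms4a1 (47.7) and 46.5 CPM of Adipoq (71.0) as the lowest. Nox4-/- replicate 1 of 32 weeks was highest for C1s1 (36.3 CPM, median 29.1) and Slamf1 (49.8, median 33.9) and lowest for Cyba (179, median 223). Among control libraries of 32 weeks, replicate 2 was lowest for Ccl3 (1.42 CPM, median 2.47) and Fmod (0 CPM, median 0.119) and replicate 3 for Acta1 (0.119 CPM, median 1.63). Control replicate 1 of 3 weeks was highest for Erg (29.4 CPM, median 20.7).

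The age effect differed between the sexes for 27 named genes in edgeR's test of the difference. It was higher in females (log2 difference) for Plin1 (5.25), Cidec (4.83), Aldh1a2 (2.48), Comp (2.28), A2m (1.92), Col2a1 (1.47), Spon1 (1.46), Col11a1 (1.32), Adipoq (1.01), Bglap2 (0.91), Klk1 (0.82), C1s1 (0.53), Siglech (0.46), Rsad2 (0.45) and Cdh5 (0.32). It was lower in females for Serpina3n (-3.41), Fmod (-3.07), Igf2 (-1.76), Cldn10 (-1.51), Trem2 (-1.13), Atp6v0d2 (-1.09), Ccl3 (-0.74), Lum (-0.63), S100a8 (-0.59), Retnlg (-0.47), Camp (-0.45) and Slpi (-0.36). Without control male replicate 3 of 32 weeks, Slpi, Ccl3, Camp, Retnlg and Cdh5 no longer passed (adjusted p from edgeR 0.053 to 0.0743). Over all alternatives the calls of 15 of the 27 genes were never lost. Those of C1s1, Klk1 and S100a8 were lost only without the deepest male library (log2 differences 0.46, 0.79 and -0.52 there), that of Lum in 3 of 42 alternatives and that of Adipoq in 6. Rsad2 lost its call in 21 alternatives, Cdh5 and Retnlg in 22, Camp in 25, Slpi in 26, and Bglap2 and Ccl3 in 30.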

How the results depend on the processing

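The count of genes called for age and the counts within each genotype stayed within 1.5 times under every alternative run; without each library in turn they ran from 11369 to 11758 for age, 7866 to 9365 in control, 9344 to 10307 in CKO and 8001 to 9475 in Nox4-/- females. Strong changes numbered 1102 with limma on the log2 values and 1469 with at least 10 counts in every library, and 2175 to 2367 without each library. For age effects that differed from control, DESeq2 called 46 (CKO) and 6 (Nox4-/-) and limma 1 (Nox4-/-), against 0 in edgeR. Leaving out libraries gave 0 to 0 for CKO and 0 to 96 for Nox4-/- (96 without Nox4-/- replicate 1 of 32 weeks, 22 without control replicate 1 of 3 weeks). For females minus males the range was 218 to 876. The count was 747, 218 and 301 without Nox4-/- males 3wk replicate 1, 3wk replicate 3 (the deepest male) and 32wk replicate 3, 280, 876 and 308 without CKO males 3wk replicate 3, 32wk replicate 2 and 32wk replicate 3, 309 without CKO female 3wk replicate 3, and 312 and 323 without control female and male 32wk replicate 1. Cdh5, not called, changed sign to 0.09 (library size only), 0.00025 (counts thinned to the shallowest library) and, without single libraries, ranged from -0.06 to 0.01, with 0.0046 and 0.0036 also above 0. The cause was not tested. Age calls were lost in some alternatives for Hist1h1b, Ctsk, Emcn, Acp5, Xist and Cyp2s1. With the replicate block, 11562 genes were called for age and 529 for females minus males, and the counts by genotype (8899, 10108 and 9121) and 0 for both differences kept their side. Removal of length and GC trends from the sex contrast, added after the data were seen, gave 586. Depth limited Nox4, Lin28b and Cdkn2a.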

Other observations

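Adnp and Ldb3 were the 2 genes called in every genotype of the females with directions that were not the same. Adnp, a homeodomain protein of chromatin, had age effects of 0.39 in control, 0.60 in CKO and -0.41 in Nox4-/- females. Ldb3, a protein of the muscle Z disc, had -1.25, -1.83 and 1.46. For neither gene did a difference from control pass the direct test in edgeR. Xist, the noncoding RNA of the silent X chromosome, lay at 740 to 994 CPM (median 875) at 3 weeks and at 581 to 738 CPM (median 678) at 32 weeks, without overlap (log2 fold change -0.39, SE 0.0616, edgeR adjusted p = 8.19e-06), a call that was lost in the fit of all 35 libraries. Of 20 replication-dependent histone genes, whose transcripts mostly lack poly(A) tails, 5 were tested, with Hist2h2be at -0.91 and Hist1h1c at 0.76.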
